A study of Mus musculus with 2 samples.

Results

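The genes of the mitochondrial ribosomal proteins were taken as every row of the expression table whose symbol is Mrpl or Mrps followed by a number and at most 1 letter. The rule found 76 of 23276 genes, of which 47 carry a large subunit symbol (Mrpl) and 29 a small subunit symbol (Mrps). They were compared between heart ventricles of wild-type (WT) mouse embryos and of embryos in which both alleles of the long non-coding RNA gene Fendrr had been removed by homologous recombination (Fendrr KO). Embryos of both genotypes were on a C57BL/6 x 129SV background, were taken at E12.5, and came from embryonic stem cells by tetraploid complementation, in which a tetraploid host supplies mainly extraembryonic tissue. Ventricles were pooled by 4, and each genotype gave 1 library of ribosomal RNA-depleted total RNA, so no difference has a replicate check, no test of genotype is possible, and every comparison is between these 2 libraries. How many stem cell lines the embryos came from was not stated in the labels.

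Mitochondria carry their own ribosome, which translates the few proteins encoded by mitochondrial DNA, all of them subunits of the respiratory chain and ATP synthase. Its RNAs are transcribed in the organelle, whereas all of its proteins are encoded by nuclear genes, translated in the cytosol and imported. Some of these proteins descend from those of the bacterial ribosome and others occur only in mitochondria. Ventricular muscle depends on the assembly of this ribosome, and loss of single members in humans is a known cause of cardiomyopathy.

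Mitochondrial ribosomal protein transcripts were lower in the KO library than in the WT library for most members, and the difference was small. Levels are FPKM, fragments scaled to the length of the transcript and to the number of mapped fragments, and ratios are log2((KO + 1)/(WT + 1)) of FPKM, a scale that understates differences of low genes. The median log2 ratio of the 76 members was -0.24, with quartiles of -0.40 and -0.09. The same median over the 11349 genes that averaged 1 FPKM or more was -0.11, so the members lay 0.13 below the level to which the whole table was shifted. KO values were below WT values for 64 of 76 members (84.2%), against 67% of all genes, and above them for 12, against 33%. The log2 ratio was below the median of all genes for 55 members (72.4%), compared with 50% of all genes by construction. All 76 members averaged 1 FPKM or more, so no member was left out of these counts.

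Regulatory regions of a few members are shown here because the results below turn on their genes: the promoters of the members with the lowest and the highest ratio, Mrpl41 and Mrpl14, and the stretches between the start sites of divergent gene pairs with like and unlike ratios. They are RefSeq sequences of build GRCm38.p6, written 5′ to 3′, and capitals mark matches to the motifs searched (the CCAAT box CCAAT, read ATTGG on the other strand, and the GC box GGGCGG, read CCGCCC on the other strand). The Mrpl41 region is the 250 bases before the start site, chr2:24975099-24975348 on the minus strand. The Mrpl14 region is the 250 bases before the start site, chr17:45686099-45686348 on the plus strand. Mrpl46 and Mrps11 are transcribed away from each other, and the 41 bases between their starts lie at chr7:78783090-78783130, shown on the plus strand. The 146 bases between the starts of Mrps12 and Sars2 lie at chr7:28741822-28741967, shown on the plus strand.
Mrpl41: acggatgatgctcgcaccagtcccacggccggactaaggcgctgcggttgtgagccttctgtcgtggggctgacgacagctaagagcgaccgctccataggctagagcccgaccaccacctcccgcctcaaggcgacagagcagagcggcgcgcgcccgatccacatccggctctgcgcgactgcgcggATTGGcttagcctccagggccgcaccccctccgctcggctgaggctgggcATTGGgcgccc
Mrpl14: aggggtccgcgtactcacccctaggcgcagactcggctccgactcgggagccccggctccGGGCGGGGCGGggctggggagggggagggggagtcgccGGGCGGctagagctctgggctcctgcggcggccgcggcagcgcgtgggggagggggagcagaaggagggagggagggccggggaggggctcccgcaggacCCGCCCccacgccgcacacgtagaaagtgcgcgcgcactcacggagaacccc
Mrpl46-Mrps11: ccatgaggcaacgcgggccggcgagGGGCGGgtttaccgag
Mrps12-Sars2: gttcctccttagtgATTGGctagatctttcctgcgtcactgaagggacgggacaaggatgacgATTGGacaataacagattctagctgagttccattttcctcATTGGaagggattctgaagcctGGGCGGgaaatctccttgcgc

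The libraries differed in ways that genotype shares. Each was sequenced on its own run, and the WT run was stopped early with its bases called by hand and possibly filtered for read length, per the labels, so run and genotype cannot be told apart. Steps between low values, where 1 fragment of a transcript of known length has a fixed FPKM, put the depth at about 13090000 mapped fragments in WT and 16440000 in KO, provided that FPKM was scaled to every mapped fragment and to annotated length. At these depths 46.5% of 819 WT values and 45.7% of 901 KO values came out as whole reads within 0.02 reads, against a median of 2.70% and 2.69% at other depths. The share was 23.1% and 22.9% at 0.5 times these depths, and 43.3% and 41.7% at 2 times, where whole numbers of reads stay whole, so the lowest depth that gave the high share was taken. Fendrr itself, carried in the table as 1110050K14Rik, had a value of 0 for WT and for KO alike and so checks neither label. Of the ventricular marker genes, the 8 for cardiomyocytes summed to 19168 FPKM in WT and 19258 in KO, with a median log2 ratio of -0.03. The single gene Myl2 made up 9103 and 9478 FPKM of these sums, and the 8 were split, with 4 lower and 4 higher in KO. Myl3 was at 2671 and 1651 FPKM and Nkx2-5 at 26.6 and 20.4, whereas Tnnt2 was at 1524 and 2174 and Myh7 at 2146 and 2486. Sums of 5 markers each were 174.6 and 173.9 FPKM for endothelium, 63.1 and 74.2 for epicardium, and 402 and 487 for mesenchyme. Erythroid markers summed to 3271 and 3350 FPKM, and leukocyte markers to 7.73 and 9.48. The 5 liver markers summed to 0.695 FPKM in WT and 20.4 in KO. Among them, Afp stood at 0.110 (WT) and 16.6 FPKM (KO), Ttr at 0.438 and 1.79, and Apoa1 at 0 and 1.67. Apoa2 was at 0.147 and 0.350 FPKM, and Alb was listed at 0 in both. In pooled tissue, a smaller share of cells rich in mitochondria and less RNA per cell cannot be told apart, and the part of cell makeup in the members' ratios was not tested.

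The members spanned a wide range of levels, in nearly the same order in both libraries. WT levels ran from 3.85 FPKM for Mrpl17 to 154 FPKM for Mrpl42, and KO levels from 3.11 to 152 FPKM for the same genes. The Spearman rank correlation between the WT and KO levels was 0.968 over the 76 genes, a description of 1 library per genotype. In WT, 15 members stood at 50 FPKM or more and 9 below 10 FPKM. The median member, at 26.9 FPKM in WT and 22.6 in KO, was at percentile 81.1 of all expressed genes in WT and 79.6 in KO.

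At the top of the range stood Mrpl42 (154 FPKM in WT, 152 in KO), a protein found only in mitochondrial ribosomes. The small subunit gene Mrps21, of a bacterial-type protein, followed at 138 and 120 FPKM. Mrpl18, whose product sits in the central protuberance, was at 120.0 FPKM in WT and 90.0 in KO. Of these 3, Mrpl42 had nearly equal values and Mrpl18 differed most. Mrpl13 was at 92.6 and 77.8 FPKM, and Mrpl30 at 90.3 and 93.5 FPKM, so that the most abundant members did not share 1 ratio. The members' reads, estimated from level, transcript length and depth, ran from 39 to 3173 in WT with a median of 500.5, and from 66 to 4009 in KO with a median of 463.5.

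**Figure D1:**
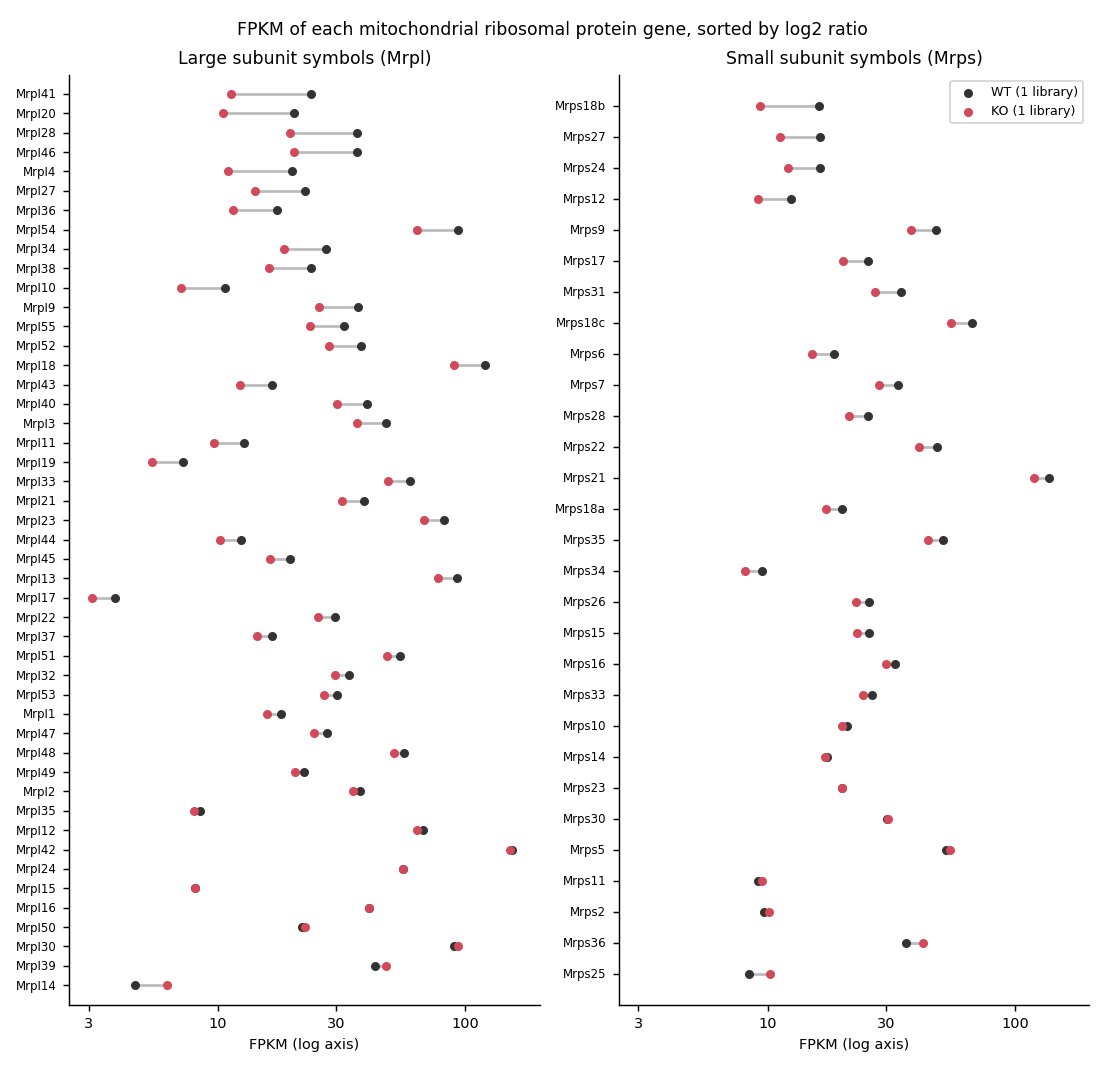
FPKM of each of the 76 members (horizontal log axis) in the WT library (black points) and the KO library (red points), joined by a line, with the 47 large subunit genes on the left and the 29 small subunit genes on the right, each sorted by log2 ratio. The KO point lies left of the WT point for 64 genes, with the longest line at Mrpl41, and right of it for 12, with the longest such line at Mrpl14.

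The large subunit holds the peptidyl transferase centre and the small subunit the decoding centre, and the deposited values of both had medians below 0. The 47 large subunit genes had a median log2 ratio of -0.26, with 41 of 47 lower in KO and 35 below the median of all genes. The 29 small subunit genes had a median of -0.20, with 23 of 29 lower in KO and 20 below the median of all genes. These counts depend on the scaling: with upper-quartile scaling, 29 of 47 and 16 of 29 were lower in KO, and the medians were -0.072 and -0.0032 beside 0.06 for all genes. The median of the large subunit minus that of the small subunit was -0.056 on the log2 scale. It was -0.032 with subunits assigned by structure and -0.13 between means. The quartiles were -0.48 and -0.12 within the large subunit and -0.28 and -0.02 within the small subunit, so the subunits overlapped broadly. Median levels were 30.3 FPKM in WT and 23.5 in KO for the large subunit, and 25.6 and 21.4 for the small subunit. Summed over genes, the large subunit went from 1814 FPKM in WT to 1512 in KO, a KO to WT ratio of 0.833. The small subunit went from 896 to 792 FPKM, a ratio of 0.883, while the sum over all expressed and unexpressed genes had a ratio of 0.912.

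Most members in the lower tail carried large subunit symbols. On the log2(FPKM + 1) scale, 7 of 76 members (9.21%) had a KO value at least 1.5-fold below that of WT, compared with 3.6% of all genes tested. Of these, 6 genes, namely Mrpl41, Mrpl20, Mrpl28, Mrpl46, Mrpl4 and Mrpl27, were among the 47 large subunit genes (12.8%), and Mrps18b is the only small subunit gene of the 29 (3.45%). This split is by symbol, and the shares were not recomputed with subunits by structure. Outside the rule, Ict1 of the large subunit (log2 ratio -0.81) and Chchd1 of the small subunit (-0.68) were also at least 1.5-fold lower. None of the members was 1.5-fold higher, against 1.54% of all genes. Mrpl41 alone was 2-fold lower, against 0.388% of all genes, and no member was 2-fold higher, against 0.467%. Its log2 ratio was -0.91 with median centring, -0.83 with upper-quartile, -0.91 with trimmed-mean and -0.89 with quantile scaling, so it was not 2-fold lower there. With a pseudocount of 5 FPKM it was -0.83. Calls over all genes lean with the scaling: with log2 ratios centred on the median of all genes, 1.69% of genes were 1.5-fold lower and 2.67% higher, and 6 members remained lower. Mrps18b lost its place among the genes 1.5-fold lower with upper-quartile scaling or a pseudocount of 5 FPKM, and Mrpl27, which has a pseudogene named after it in RefSeq, under that pseudocount and each of the 4 other scalings. Among the 8142 genes within the span of the members' levels, the median log2 ratio was -0.13 and 3.61% were 1.5-fold lower.

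**Figure D2:**
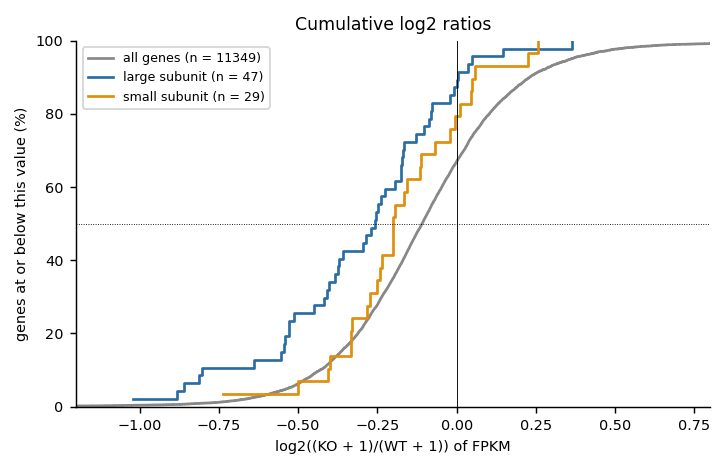
Cumulative share of genes in percent (vertical axis) against the log2 ratio of KO over WT on the log2(FPKM + 1) scale (horizontal axis) for large subunit members, small subunit members and 11349 genes of all kinds. The large subunit's curve lies left of that of all genes down to its lowest value of -1.02, and the small subunit's lies left of it at the median but close to it among the lowest ratios.

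Mrpl41, a protein of the large subunit with no bacterial counterpart, stood at 23.9 FPKM in the WT library and 11.3 in the KO library, on the log2 scale a ratio of -1.02. Its FPKM ratio of KO to WT was 0.472, with an exact binomial 95% interval of 0.383 to 0.584 from estimated reads. These intervals cover counting error in 1 library per genotype and no variation between embryos, and reads without molecular identifiers are not independent molecules. Mrpl20, of a protein that in bacteria binds ribosomal RNA early in assembly, was at 20.2 and 10.5 FPKM, a ratio of 0.520 (interval 0.414 to 0.651). Mrpl28, of bacterial type, was at 36.4 and 19.6 FPKM, a ratio of 0.538 (interval 0.469 to 0.619). All 3 intervals lie well below 1. Mrps18b, the lowest ratio of the small subunit, was at 16.2 FPKM in WT and 9.30 in KO, a ratio of 0.575 (interval 0.461 to 0.717).

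The other small subunit genes with the lowest ratios differed less. Mrps27, of a pentatricopeptide repeat protein, was at 16.3 and 11.2 FPKM, a log2 ratio of -0.50. Mrps24 was at 16.3 and 12.1 FPKM, and Mrps12, of the decoding centre, at 12.4 and 9.16 FPKM, both at a log2 ratio of -0.40. These 3 had similar levels in WT and none reached 1.5-fold.

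A minority of members went the other way: 12 had higher values in KO, and 21 had ratios above the median of all genes. Mrpl14, of a protein at the interface between the subunits, had the highest log2 ratio, 0.36, from 4.62 FPKM (WT) and 6.23 FPKM (KO). Its estimated reads were only 39 and 66, and the interval of its ratio, 0.893 to 2.06, holds 1. Mrps25 was at 8.40 and 10.2 FPKM, a ratio with an interval of 1.10 to 1.34, and Mrpl39 was at 43.2 and 48.0 FPKM with an interval of 1.03 to 1.19. Mrps36 was also higher, at 36.2 FPKM in WT and 42.5 in KO (interval 1.01 to 1.37). Mrps36 is named as a ribosomal protein, but its product is now known as a subunit of the 2-oxoglutarate dehydrogenase complex, and pseudogenes named after it may share its reads. These intervals are set against 1 and not against the shift of all genes. The remaining genes at the upper end had nearly equal values in both libraries: Mrpl50 at 21.8 and 22.4 FPKM, Mrps5 at 52.8 and 54.4, Mrps2 at 9.70 and 10.1, and Mrps11 at 9.16 and 9.50.

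By position in the ribosome, 5 groups of genes were taken, each a selection and not every protein at that position. Over all genes, 67% were lower in KO and 50% were below the median, so counts in groups this small are descriptions only. The central protuberance, which contacts tRNAs and the small subunit at the top of the large subunit, had the lowest median of the 5 groups. All 5 genes taken for it were lower in KO, also relative to the shift of all genes, and they had a median log2 ratio of -0.41 and a summed FPKM ratio of 0.754. Mrpl46 stood at 36.4 and 20.3 FPKM, on the log2 scale a ratio of -0.81. Mrpl38 was at 23.7 and 16.1 FPKM, and Mrpl40 at 39.9 and 30.3. Mrpl18 had a log2 ratio of -0.41 and Mrpl48, at 56.6 and 51.7 FPKM, one of -0.13, so the group ranged from one of the lowest ratios among members to one near that of all genes.

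Around the peptidyl transferase centre, where peptide bonds are formed, the median log2 ratio was -0.38, but the 5 genes were split, with 3 on the lower side of the median of all genes and 2 on its upper side. Mrpl4, whose protein lines the upper part of the exit tunnel, was at 19.9 and 11.0 FPKM, a log2 ratio of -0.80. Mrpl27, whose protein reaches towards the centre itself, was at 22.5 and 14.1 FPKM, a log2 ratio of -0.64. Mrpl3, linked to cardiomyopathy in humans, was at 47.6 and 36.5 FPKM, while Mrpl2 was at 37.5 and 35.2 and Mrpl16 at 40.7 and 40.8. The genes with the lowest WT levels of the 5, Mrpl4 and Mrpl27, also had the lowest ratios.

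At the stalks, where translation factors dock and deacylated tRNA leaves, all 4 genes taken were lower and 3 were also below the median of all genes. Their median log2 ratio was -0.27. Mrpl10 was at 10.7 and 7.09 FPKM and Mrpl11 at 12.8 and 9.62, log2 ratios of -0.53 and -0.37. Mrpl1 was at 17.9 and 15.8 FPKM, and Mrpl12, whose protein contacts the elongation factors, at 67.3 and 63.8. The most abundant of these 4 genes therefore differed least.

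At the exit tunnel, through which nascent chains reach the inner membrane, all 5 genes taken were lower, and 4 were also below the median of all genes. Their median log2 ratio was -0.23. Mrpl45, whose protein ties the tunnel exit to the inner membrane, was at 19.5 and 16.2 FPKM. Mrpl22 was at 29.8 and 25.3 FPKM, Mrpl23 at 82.2 and 68.0, and Mrpl47 at 27.5 and 24.4. Mrpl24, at 56.3 and 55.9 FPKM, was all but equal. In the small subunit, the 5 genes taken for the decoding centre and head had a median of -0.25. Of these 5, 4 were lower (80%, against 67% of all genes) and 3 were below the median of all genes (60%, against 50%). Mrps12 was as above, Mrps9 at 48.0 and 37.9 FPKM, Mrps7 at 33.6 and 28.1, and Mrps10 at 20.9 and 19.9, with Mrps5 slightly higher in KO.

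The 4 members whose human counterparts are linked to cardiomyopathy were all lower, against 67% of all genes. Relative to the median of all genes, 3 of them were lower, against 50%. Their median log2 ratio was -0.25 and none was 1.5-fold lower, against 3.6% of all genes. Mrpl44, whose protein has a ribonuclease III fold, was at 12.3 and 10.2 FPKM. Mrps22 was at 48.2 and 40.7 FPKM, and Mrps14 at 17.4 and 17.1. Mrpl3 had the lowest ratio of the 4, a log2 ratio of -0.38.

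Medians were close between classes set by the uniform protein names, which start with u or b for bacterial-type proteins and with m for mitochondrial ones. The 45 genes of proteins with bacterial-type names had a median log2 ratio of -0.25, with 4 at least 1.5-fold lower (8.89%, against 3.6% of all genes). The 30 of proteins with mitochondrial names, leaving Mrps36 aside, had a median of -0.20, with 3 at least 1.5-fold lower (10%). Within the large subunit these medians were -0.27 and -0.26, and within the small subunit -0.22 and -0.20. The Mrps18 paralogues all derive from 1 bacterial protein and are used at different positions. Mrps18a and Mrps18b nevertheless have mitochondrial names and were counted among the 30, with Mrps18b as 1 of the 3 lower, so the classes do not strictly follow descent. Mrps18c was at 67.3 and 55.1 FPKM (log2 ratio -0.28), Mrps18b as given above (-0.74), and Mrps18a at 19.9 and 17.2 (-0.20). Structural work places Mrps18a and Mrps30 in the large subunit despite their symbols, and Mrps30 was at 30.4 and 30.7 FPKM.

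Ratios of the members moved with the base composition of their transcripts. The Spearman rank correlation between log2 ratio and GC content was -0.43 over the 76 members and -0.09 over 10570 expressed genes with a GENCODE vM21 transcript. It is given as a description across genes of the same 2 libraries. RefSeq-linked transcripts were used where a gene had any, and otherwise all of its transcripts. In the 5 equal classes of all genes from low to high GC content, members had median log2 ratios of -0.11, -0.17, -0.21, -0.39 and -0.40, with 9, 15, 22, 17 and 13 genes. All genes in these classes had medians of -0.09, -0.09, -0.10, -0.14 and -0.15. Members were thus below all genes of the same GC class by 0.02 in the lowest class and by 0.25 in each of the 2 highest. Median GC content was 51.3% for the large subunit, 49.7% for the small subunit and 50.1% for all genes.

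Transcript length was examined in the same way. Members are short, with a median of 1224.5 bases against 2879.5 for all genes, and 50 of 76 fell in the shortest of 5 equal classes of genes. In that class the members' median log2 ratio was -0.28 and that of all genes -0.15. The part of GC content and length in the members' ratios, and of the separate sequencing runs, was not tested.

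**Figure D3:**
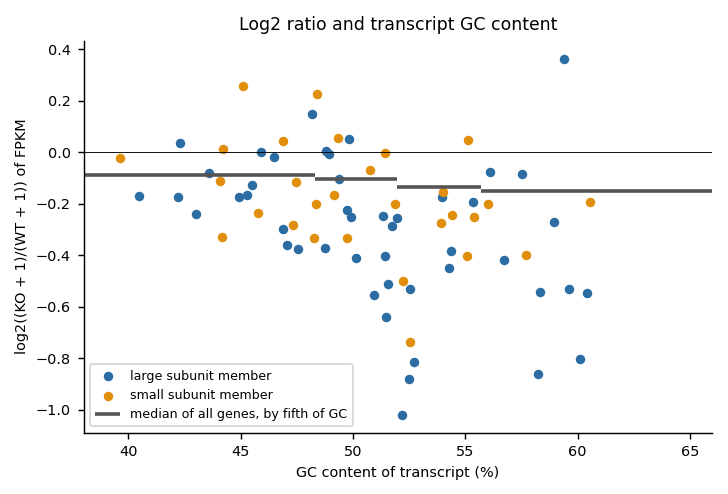
Log2 ratio of KO over WT (vertical axis) against transcript GC content in percent (horizontal axis), 1 point per member and 1 colour per subunit, with grey bars at the medians of all genes in the 5 GC classes. Members with more GC lie lower, with a rank correlation of -0.43, while medians of all genes run only from -0.09 to -0.15.

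In the 250 bases before the start site, 67 of the 76 members had 73 RefSeq promoter entries, compared with 32851 entries of all genes on both strands. The NRF1 motif, searched as GCGCA and GCGC with 1 base of any kind between them, was in 9 member promoters (12.3%) and 3.74% of all. The ETS motif bound by GABP, CCGGAAG, was in 17 (23.3%) and 6.91% of all. The GC box, GGGCGG, was in 36 (49.3%) and 32.7% of all, and the CCAAT box, CCAAT, in 28 (38.4%) and 33.8%. The YY1 motif, ATGGCGG, was in 1 (1.37%) and 2.21% of all. Motifs were searched separately and may overlap. By motif, the median log2 ratio was -0.20 for the 9 genes with the NRF1 motif and -0.23 for the 58 without, and -0.24 for the 17 genes with the ETS motif and -0.18 for the 50 without. With a GC box it was -0.18 (32 genes) against -0.25 (35 genes), and with a CCAAT box -0.19 (25 genes) against -0.24 (42 genes). The Mrpl41 region above holds CCAAT boxes and no GC box, and the more GC-rich Mrpl14 region (77.2% against 68.8%) GC boxes and no CCAAT box. Both regions were picked by the ratio of their gene, and a link between motifs and ratios was not tested.

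Many members start beside another gene. In GENCODE vM21, 25 of 76 members (32.9%) had the start of a divergent protein-coding gene between 500 bases of overlap and 1000 bases away, against 9.52% of 21924 coding genes. The 25 members formed 24 pairs, and in 22 of them both genes averaged 1 FPKM or more. Both genes were lower in KO in 17 of these pairs (77.3%) and both were higher in 2 (9.09%), compared with 58.2% and 7.07% of the 622 divergent pairs of coding genes of any kind in which both were expressed, member pairs included. Median log2 ratios were -0.27 for the members and -0.22 for their neighbours, and the median gap within a pair was 0.16, against 0.22 over all 622 pairs. The difference between member pairs and all pairs was not tested.

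Pairs differed in how closely they matched. Mrps12 and Sars2, the mitochondrial seryl-tRNA synthetase gene, whose shared stretch of 146 bases is shown above, both had a log2 ratio of -0.40, Sars2 being at 3.92 and 2.74 FPKM. Without the 1 FPKM added on that scale, their FPKM ratios were less alike, at 0.738 for Mrps12 and 0.698 for Sars2. Mrpl51 and the condensin gene Ncapd2 also matched, at -0.18 and -0.17. Mrpl46 and Mrps11, divided by 41 bases between RefSeq starts, had the widest gap, at -0.81 and 0.05. Their GENCODE genes overlap by 412 bases, and whether read strand was used in counting was not stated, so reads in the overlap may be assigned to either. Mrps18b and Ppp1r10 (-0.74 and -0.07) and Mrpl41 and Pnpla7 (-1.02 and -0.21, 935 bases apart) were also unlike. The GENCODE gene models of Mrpl13, Mrpl21, Mrpl27, Mrpl36, Mrpl44 and Mrps7 overlap their divergent neighbours as well.

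**Figure D4:**
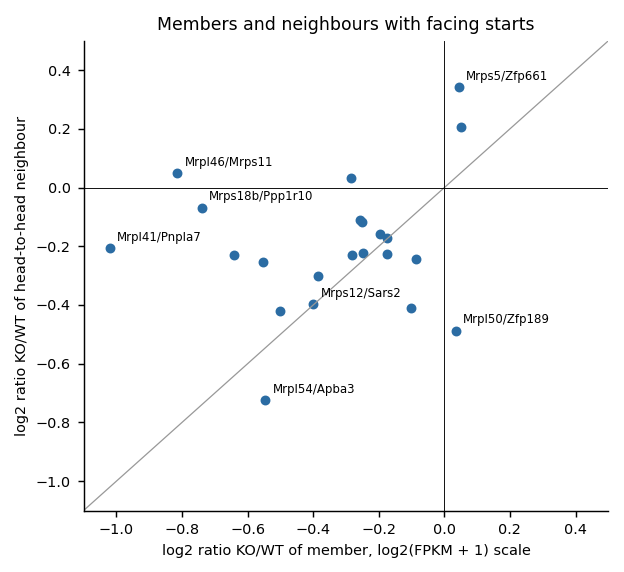
Log2 ratio of KO over WT of each member (horizontal axis) and of its divergent neighbour (vertical axis) for the 22 pairs in which both genes were expressed, with the line of equality. The quadrant in which both are lower holds 17 pairs, and the pair furthest from the line is Mrpl46 with Mrps11.

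Genes that work with the mitochondrial ribosome, in lists for its other proteins, assembly, translation factors, tRNA charging and mitochondrial DNA, had medians below that of all genes under the deposited values and all 4 other scalings. The 7 ribosomal proteins with other symbols were all lower, against 67% of all genes. Their median log2 ratio was -0.39, and 2 were at least 1.5-fold lower (28.6%, against 3.6% of all genes). These were Ict1, a release factor relative built into the large subunit, at 51.7 and 29.2 FPKM, and Chchd1 of the small subunit, at 52.1 and 32.2. Ptcd3, also of the small subunit, was at 60.8 FPKM in WT and 42.8 in KO, whereas Aurkaip1 was at 52.5 and 50.3. Of 32 genes for ribosome assembly and mitochondrial RNA, 30 were lower, with a median of -0.23, and 4 were at least 1.5-fold lower. Those were the RNA methyltransferase genes Mrm1 (3.98 and 1.82 FPKM) and Tfb1m (8.88 and 5.20), Mpv17l2 (2.40 and 1.08), and Rbfa, a factor of small subunit maturation (18.7 and 11.1). Lrpprc and Slirp, partners in holding mitochondrial mRNAs, were at 51.1 and 50.1 and at 95.7 and 68.2 FPKM.

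Translation factors, 12 in number, had a median of -0.27, with 10 lower (83.3%, against 67% of all genes). Tsfm, which recycles the elongation factor Tufm, was 1.5-fold lower at 22.0 and 13.9 FPKM, with Tufm at 47.4 and 39.2, and Taco1, an activator of cytochrome oxidase translation, was higher at 7.26 and 9.23. Of 17 tRNA synthetase genes, 16 were lower (94.1%), with a median of -0.30. Yars2 was 1.5-fold lower, at 12.1 and 7.29 FPKM, and Lars2 stood apart with 13.2 FPKM in WT and 50.5 in KO. The 12 genes for expression of mitochondrial DNA had a median of -0.18 and 10 lower (83.3%), among them Tfam, which packages this DNA, at 19.8 and 17.1. The 8 expressed regulators of mitochondrial biogenesis had a median of -0.05, above that of all genes, with none at 1.5-fold, Esrra at 13.4 and 9.22 FPKM, Gabpa at 26.5 and 26.3, and Ppargc1a at 9.81 and 10.7. No row of the expression table has a symbol starting with mt-, the prefix of genes of mitochondrial DNA, and transcripts of that DNA were not analysed here.

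As a whole, cytosolic ribosomal protein genes were nearer to all genes than the members were, but those of the cytosolic small subunit were not. The 77 expressed had a median log2 ratio of -0.19, with 54 lower in KO (70.1%, against 67% of all genes). At least 1.5-fold lower were 3 (3.90%, against 3.6%) and higher 2 (2.60%, against 1.54%), shares near those of all genes. Their subunits were ordered the other way: the median was -0.15 for 46 large subunit genes and -0.30 for 31 small subunit genes. Set against the median of all genes, the cytosolic small subunit lay at -0.20, lower than the members at -0.13, and the cytosolic large subunit at -0.04. Relative to the median of all genes, the members' median stayed below it under all 4 other scalings, as did that of the cytosolic genes (from -0.08 to -0.04 relative to all genes). As unshifted values, the cytosolic median ran up to 0.0089, that of the cytosolic large subunit up to 0.055 and that of the biogenesis regulators up to 0.10, so their sign against 0 depends on the scaling. The difference between mitochondrial and cytosolic ribosomal genes was not tested.

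**Figure D5:**
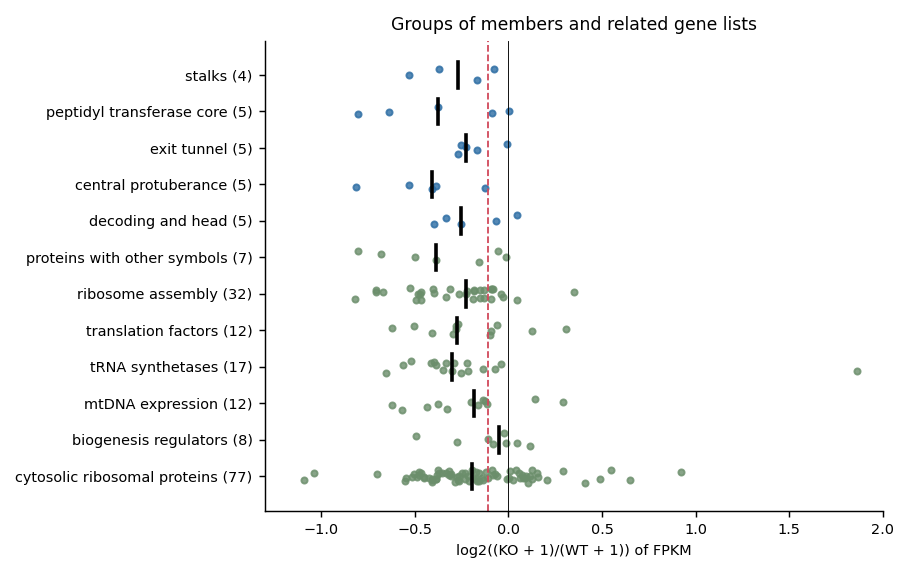
Log2 ratio of KO over WT on the log2(FPKM + 1) scale for structural groups of members (blue points, 1 per gene) and for related gene lists (green points), with black bars at the medians, a dashed line at the median of all genes (-0.11) and the number of genes in parentheses. All medians lie left of the dashed line except that of the biogenesis regulators, and the point far to the right is Lars2.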

How the data were processed

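Total RNA of 4 pooled ventricles per genotype was depleted of ribosomal RNA and sequenced as 1 library each, per the labels. FPKM values per gene symbol were deposited by the authors and were made on mm9 with Cufflinks 2.0.2, Bowtie2 2.0.2 and TopHat2 2.0.6, per the submitters' processing notes. The annotation used and any settings are not given in the sources used here. From these, log2((KO + 1)/(WT + 1)) was computed with a pseudocount of 1 FPKM and a minimum mean of 1 FPKM, and lists were described by medians and counts without a test. Depth came from steps of low FPKM values at transcript lengths of GENCODE vM21, and reads per member were estimated at the median length of RefSeq-linked transcripts, which all 76 members had. For Mrpl38, Mrpl42, Mrpl44, Mrpl45 and Mrpl46, an annotated length gave whole reads in both libraries within 0.01 reads. Genome positions and sequences are of GRCm38, another build than that of the values, and were not joined to any mm9 coordinate. Genes near identical to pseudogenes may share reads, and Mrpl23, Mrpl48 and Mrps36 have pseudogenes named after them in GENCODE vM21 and RefSeq, and Mrpl27 in RefSeq.

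Named genes were, per subunit, the 4 with the highest mean and the 4 highest and lowest log2 ratios at a mean of at least 5 FPKM, the members of structural groups, the Mrps18 paralogues, Mrps30, Mrps36 and the cardiomyopathy-linked genes. Up to 4 genes of each related list were taken, by level or ratio. Divergent pairs, Mrpl17, and a few further genes of related lists were named after their values were seen. Members and lists were chosen with earlier results of these data known. The procedure was tested on simulated data. Values were recomputed with pseudocounts of 0.1 and 5, without the filter, with a filter at 5 FPKM, under 4 scalings (median centring, upper quartile, trimmed mean and quantile), with subunits by structure, with means for medians, and, added after seeing the data, leaving out members with pseudogenes. Python 3.11.15, numpy 2.4.6, pandas 2.3.3, scipy 1.17.1 and matplotlib 3.10.9 were used.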

Additional observations from a re-analysis of the deposited data

How the results depend on the processing

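No paired analysis was possible because WT and KO were sequenced once each, and leaving out a library would leave no comparison. No median of the members or of a subunit and no 1.5-fold call changed sign in the alternatives run, but log2 ratios of single members near 0 did. Their sign differed from that of the deposited values for 19 of 76 members under the upper quartile, for 13 after quantile normalization, and for 9 after centring on the median or on the trimmed mean. The median log2 ratio of all members, of the large and of the small subunit was -0.20, -0.23 and -0.17 with a pseudocount of 5 FPKM, -0.13, -0.15 and -0.092 with median centring, -0.043, -0.072 and -0.0032 with upper-quartile scaling, -0.13, -0.15 and -0.090 with trimmed-mean scaling, and -0.10, -0.13 and -0.064 with quantile normalization. Scalings move all genes together: the median of all genes was 0.06 under upper-quartile scaling. As means instead of medians, the values were -0.26 for all members and -0.31 for the large subunit, with a large minus small difference of -0.13. That difference was -0.032 with subunits by structure. The other alternatives moved these medians by less than the counting width of the summed reads. This width was 0.017 for all members, 0.022 for the large and 0.028 for the small subunit, and it is not the error of a median over genes. The 1.5-fold and below-median counts stayed within 1.5 times.

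The 5 genes Mrpl20, Mrpl28, Mrpl4, Mrpl41 and Mrpl46 were at least 1.5-fold lower under every alternative. Mrps18b was not with a pseudocount of 5 FPKM or upper-quartile scaling, and Mrpl27 was not with a pseudocount of 5 FPKM or any of the 4 scalings. Mrpl36 was added with a pseudocount of 0.1 FPKM. Of 607 log2 ratios of single members under alternatives, 523 stayed within counting error, 84 moved further, and 0 of the 1.5-fold calls changed sign. Depth limits the lowest members, as for Mrpl14 with 39 and 66 estimated reads, and counting intervals say nothing of variation between embryos.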
